A study of Mus musculus with 4 samples.

Results

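The genes described here are the liver X receptors (LXRs), several of their target genes and genes of lipid efflux and storage, in mouse osteoclast cultures treated with a p38α inhibitor. The set has 10 members, taken by symbol through their Ensembl identifiers: Nr1h2, Nr1h3, Abca1, Abcg1, Mylip, Lpcat3, Apoe, Pltp, Lpl and Plin2. All 10 were found among the 23390 gene models of the count table, and all 10 passed the filter on low counts that left 13214 models for testing. Bone marrow of wild-type C57BL/6J mice was cultured for 3 days in L929 supernatant, a source of M-CSF equivalent to 20 ng/ml. The attached macrophages were reseeded with M-CSF and given 40 ng/ml RANKL, the cytokine that turns macrophages into osteoclasts. Controls received the solvent DMSO (2 libraries) and treated cultures received 10 µM BMS-582949 (2 libraries), and RNA was taken at day 4. The design text has the compound present for 3 days and the treatment protocol for 4 days. The protocol is the same text for controls and treated samples, so groups follow the sample titles and the treatment label, although the titles transpose digits of the compound's name.

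LXRα (Nr1h3) and LXRβ (Nr1h2) are nuclear receptors that sense oxysterols, oxidised forms of cholesterol. They bind DNA as heterodimers with retinoid X receptors (RXRs), typically at DR4 elements, in which copies of a hexamer are repeated in the same direction with a spacer of 4 bases. In macrophages they are known for switching on cholesterol export, lipoprotein remodelling and changes in phospholipid composition when cells take up more sterol than they need.

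Depth was 35331889 to 39255925 counts per library. The treatment was tested with edgeR's quasi-likelihood method on 13214 genes, and those with an adjusted p under 0.05 (Benjamini-Hochberg) are referred to as called. Calls took in 60.2% of the genes (30.5% upward and 29.7% downward), so a call in itself was common. Groups did not overlap for 80.2% of tested genes. Values are CPM, a library's counts for a gene relative to its total, scaled by TMM, a normalisation that assumes most genes do not change. Scaling by library size only shifted the median over all genes from 0.03 to 0.41 on the log2 scale, and the members whose direction or call depends on this are named below. All 10 osteoclast markers were called lower, with a summed level of 99133 and 103354 CPM in DMSO against 12156 and 12315 CPM, and Acp5 at 34765 ± 723 and 3765 ± 120 CPM (SD, n = 2). Of 10 macrophage markers, 6 were called higher and 2 lower, with a summed level of 5789 to 6039 CPM in DMSO and 3093 to 3290 CPM with the inhibitor. Most of that sum came from the 2 called lower, Cd68 (3464 ± 31.1 and 1358 ± 138 CPM) and Csf1r (1977 ± 129 and 883 ± 11.1 CPM). Cx3cr1, among the 6 called higher, stood at 1.34 ± 0.257 CPM in DMSO and 32.4 ± 1.57 CPM with the inhibitor (SD, n = 2). These are bulk cultures, in which fewer cells of a type and less RNA per cell cannot be told apart, and the part of the changed marker levels in the results below was not tested. No label says whether the 2 libraries in each group are different mice or dishes, so p-values measure the spread between these samples only, which may be technical.

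Of the 10 members, 4 were called higher with BMS-582949 (Nr1h3, Apoe, Pltp and Lpl), 4 lower (Nr1h2, Abca1, Lpcat3 and Plin2) and 2 were not called (Abcg1 and Mylip). The 8 called members were also the 8 whose groups did not overlap. Over all tested genes, 60.2% were called and 80.2% did not overlap, so the members' count of 8 in 10 is close to the general share for overlap. Log2 fold changes ran from -0.54 to 0.84, with a median of 0.15 against 0.03 over all tested genes. With TMM none reached a log2 fold change of 1 in either direction, whereas 2813 of the tested genes were called and did. With library size only, 7 members were called higher and 1 lower, the median was 0.53, and Lpl (1.22) and Pltp (1.02) passed 1.

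**Figure D1:**
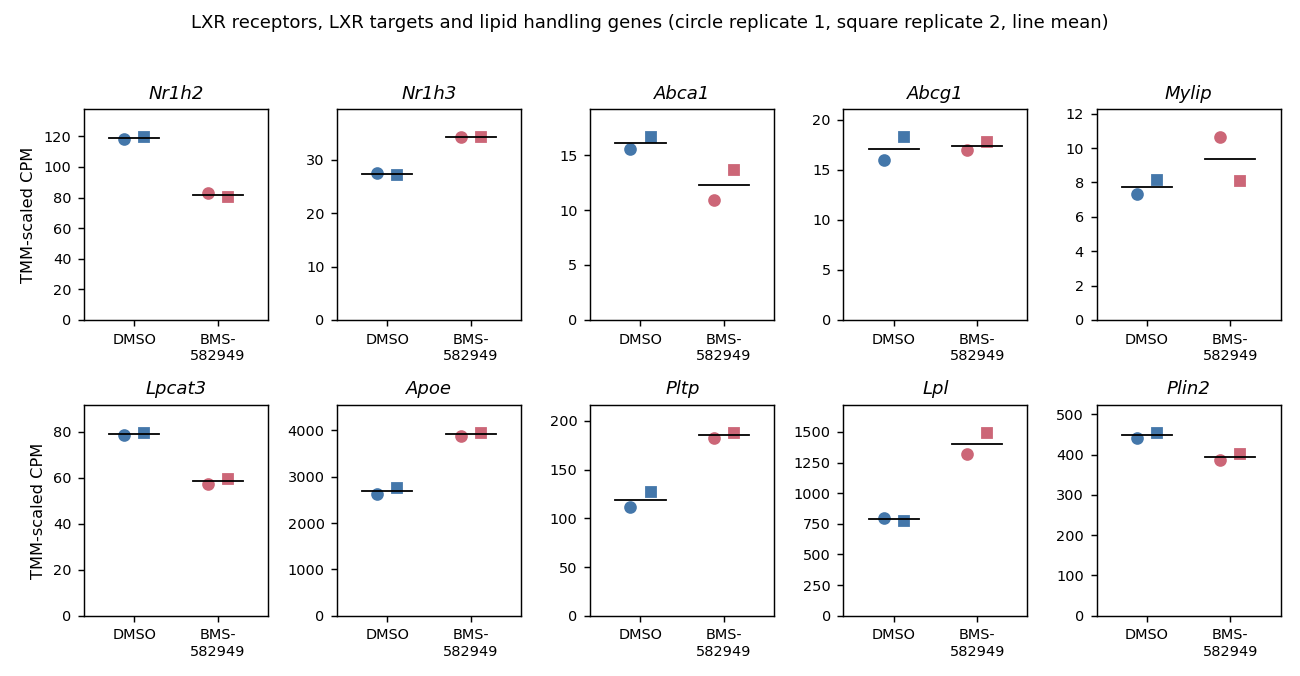
TMM-scaled CPM (linear axes from 0, a scale for each panel) of the 10 genes in each library, with circles for replicate 1, squares for replicate 2 and lines for group means. Libraries of the 2 groups overlap for Abcg1 and Mylip. On this scale both BMS-582949 libraries lie above both DMSO libraries for Nr1h3, Apoe, Pltp and Lpl, and below them for Nr1h2, Abca1, Lpcat3 and Plin2, of which Plin2 turns upward with library size only.

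The receptors moved in opposite directions. Nr1h2 (ENSMUSG00000060601, chromosome 7, 44549616 to 44553951, GRCm38), which encodes the broadly expressed LXRβ, stood at 118 and 120 CPM in the DMSO libraries and at 83.1 and 80.6 CPM with BMS-582949. Both treated libraries were lower than both controls. The log2 fold change was -0.54 ± 0.06 (SE, adjusted p = 9.8e-06), and with library size only it was -0.16 and still called (adjusted p = 0.041). Nr1h3 (ENSMUSG00000002108, chromosome 2, 91184061 to 91202834), which encodes LXRα, the form enriched in macrophages, liver and fat, stood at 27.5 and 27.2 CPM in DMSO and at 34.2 and 34.3 CPM with BMS-582949. Here both treated libraries were higher, by 0.33 ± 0.10 on the log2 scale (SE, adjusted p = 0.015) and by 0.71 with library size only. Without DMSO replicate 2 the value was 0.32 and no longer called (adjusted p = 0.060). In the other alternative fits, at an adjusted p under 0.05, the rise of Nr1h3 and the fall of Nr1h2 kept their calls.

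A ratio within a library does not depend on how libraries are scaled. Per kilobase of exon, Nr1h3 stood at 0.311 and 0.303 of the level of Nr1h2 in DMSO and at 0.549 and 0.568 with BMS-582949. The treated libraries were higher by 0.86 on the log2 scale. An exact two-sided permutation test over these samples gave p = 0.333, the smallest that 2 libraries against 2 allow. LXRβ messenger RNA remained the more abundant of the pair in every library. With TMM the summed level of both receptors was 46.3 ± 0.261 FPKM (CPM per kilobase of exon, SD, n = 2) in DMSO and 38.0 ± 0.516 FPKM with the inhibitor. Unlike the ratio, this sum depends on scaling. With library size only, Nr1h2 changed by -0.16 and Nr1h3 by 0.71 on the log2 scale, so no direction is drawn from the sum.

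The cholesterol exporters were both expressed at a low level. Abca1 (ENSMUSG00000015243, chromosome 4, 53030787 to 53159895) encodes the transporter that loads cholesterol and phospholipid onto lipid-poor apolipoprotein A-I. It stood at 15.6 and 16.7 CPM in DMSO and at 10.9 and 13.6 CPM with BMS-582949. Both treated libraries were lower, but they differed more from each other than the controls did. The log2 fold change was -0.39 ± 0.13 (SE, adjusted p = 0.023). That call ended without DMSO replicate 2 (-0.34, adjusted p = 0.061), without BMS-582949 replicate 1 (-0.24, adjusted p = 0.24) and with library size only (-0.012, adjusted p = 0.94).

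Abcg1 (ENSMUSG00000024030, chromosome 17, 31057675 to 31117988), which encodes a transporter that passes cholesterol on to HDL particles, stood at 15.9 and 18.3 CPM in DMSO and at 17.0 and 17.7 CPM with the inhibitor. The treated libraries lay between the controls. The difference was 0.02 on the log2 scale with a 95% interval from -0.24 to 0.28 and was not called (adjusted p = 0.89). Its sign turned with DESeq2 size factors (-0.0068), and with library size only it was called higher (0.40, adjusted p = 0.010). The ratio of Abca1 to Abcg1 per kilobase was 0.689 and 0.642 in the controls and 0.454 and 0.542 under the inhibitor, so it was lower in both treated libraries (exact two-sided permutation p = 0.333, the smallest possible).

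Abca1 is the textbook LXR target whose proximal promoter holds a DR4 element, and its 250 bases before the RefSeq start are shown for that reason (chr4:53159896-53160145, minus strand, GRCm38.p6, read 5′ to 3′ in the gene's direction). Capitals mark the 16 bases from -67 to -52 that match the motif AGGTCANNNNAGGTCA best on either strand.
Abca1 promoter: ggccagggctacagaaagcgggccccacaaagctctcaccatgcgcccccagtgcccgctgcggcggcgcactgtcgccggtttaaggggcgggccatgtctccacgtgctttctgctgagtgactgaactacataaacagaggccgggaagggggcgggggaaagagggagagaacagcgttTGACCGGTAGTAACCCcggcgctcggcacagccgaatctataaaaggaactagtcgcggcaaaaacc
Abca1 DR4 match, opposite strand, repeats in capitals: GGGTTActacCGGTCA
The match holds 9 of the 12 defined bases, 4 in one repeat and 5 in the other. Entries for 8 of the 10 members were found in the RefSeq table, with 11 start sites, and the other 10 windows matched at 7 or 8 bases at most. Among all 32851 windows of 300 bases in the table, 21.9% held at least 9 matching bases and 76.9% at least 8, so matches of this quality are common, and they are given as a description of sequence only.

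Mylip and Lpcat3 are LXR targets that act on lipoprotein uptake and on membrane lipids. Mylip (ENSMUSG00000038175, chromosome 13, 45389742 to 45412022) encodes a ubiquitin ligase that sends lipoprotein receptors for degradation. It stood at 7.30 and 8.14 CPM in DMSO and at 10.7 and 8.06 CPM with BMS-582949. The treated libraries differed widely and one of them lay between the controls. The log2 fold change of 0.28 (95% interval -0.09 to 0.65) was not called (adjusted p = 0.18). It was 0.44 and called without BMS-582949 replicate 2 (adjusted p = 0.049), 0.058 without BMS-582949 replicate 1, and 0.66 and called with library size only (adjusted p = 0.0056).

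Lpcat3 (ENSMUSG00000004270, chromosome 6, 124663027 to 124704418) encodes the acyltransferase that places polyunsaturated fatty acids into phospholipids. Its level was 78.8 and 79.6 CPM in DMSO and 57.3 and 59.7 CPM with BMS-582949. Replicates were close to each other and the groups did not overlap. Lpcat3 fell by 0.44 ± 0.07 on the log2 scale (SE, adjusted p = 0.00011), and was not called with library size only (-0.056, adjusted p = 0.46). Exons of Emg1 on the opposite strand cover 10.2% of its exon length, and Emg1 went the other way, from 73.4 ± 3.92 to 91.9 ± 5.40 CPM (SD, n = 2). Whether counting used strand is not given in the sources used here, so reads from the shared stretch cannot be assigned.

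The secreted lipoprotein factors both rose. Apoe (ENSMUSG00000002985, chromosome 7, 19696109 to 19699188) encodes apolipoprotein E, which macrophages secrete with exported cholesterol. The DMSO libraries held 2638 and 2759 CPM, and the treated ones 3886 and 3950 CPM. Both treated libraries were well above the controls, and the gap exceeded the spread within either group. Apoe rose by 0.54 ± 0.07 on the log2 scale (SE, adjusted p = 4.1e-05), and by 0.92 with library size only. Per kilobase, its level of 1262 ± 40.1 FPKM in DMSO exceeded that of 99.7% of tested genes with a known length.

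Pltp (ENSMUSG00000017754, chromosome 2, 164839518 to 164857711) encodes the phospholipid transfer protein, which moves phospholipids between lipoprotein particles. Its level was 111 and 127 CPM in DMSO and 182 and 188 CPM with BMS-582949. The treated libraries were again both higher. The log2 fold change was 0.64 ± 0.07 (SE, adjusted p = 6.9e-06), from 0.55 to 0.74 when libraries were left out in turn and 1.02 with library size only. Exons of the lysosomal protease gene Ctsa on the opposite strand cover 19.3% of the exon length of Pltp. Ctsa was the more abundant of these neighbours and fell, from 2959 ± 150 to 1198 ± 87.9 CPM (SD, n = 2), opposite in direction to Pltp.

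Lpl and Plin2 concern triglyceride, the first its release from lipoproteins and the second its storage. Lpl (ENSMUSG00000015568, chromosome 8, 68880491 to 68907448) encodes lipoprotein lipase, which frees fatty acids from circulating triglyceride. It stood at 797 and 776 CPM in DMSO and at 1316 and 1493 CPM with BMS-582949. Both treated libraries were far above the controls, although they differed from each other more than the controls did. Its change of 0.84 ± 0.07 on the log2 scale (SE, adjusted p = 9.6e-07) was the largest among the 10 genes, with all 4 fits that leave out a library calling it (0.72 to 0.92), and it was 1.22 with library size only.

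Plin2 (ENSMUSG00000028494, chromosome 4, 86648386 to 86670060) encodes perilipin 2, the protein that coats lipid droplets in most cells. The DMSO libraries held 442 and 454 CPM, and those with BMS-582949 388 and 402 CPM. The treated libraries were lower by a small margin. The difference of -0.18 ± 0.06 on the log2 scale (SE, adjusted p = 0.021) turned to 0.20 and was called higher with library size only (adjusted p = 0.0085). Its call also ended with upper-quartile scaling (adjusted p = 0.097), when DMSO replicate 2 (adjusted p = 0.093) or BMS-582949 replicate 1 (adjusted p = 0.095) was left out. As a ratio within libraries, Lpl stood at 0.605 and 0.572 of Plin2 per kilobase in DMSO and at 1.14 and 1.25 with BMS-582949, so the order of these genes was exchanged in both treated libraries (exact two-sided permutation p = 0.333, the smallest possible). Of 8 adipocyte markers 6 had no count in any library (Plin1, Cidec, Cfd, Retn, Lep and Car3), and none exceeded 3 counts in a library. Stromal markers had a summed level of 804 and 732 CPM in DMSO and 525 and 521 CPM with the inhibitor. Of 8 tested, 6 were called lower, beside 29.7% of all tested genes. Which cells the Lpl messenger RNA came from was not tested.

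**Figure D2:**
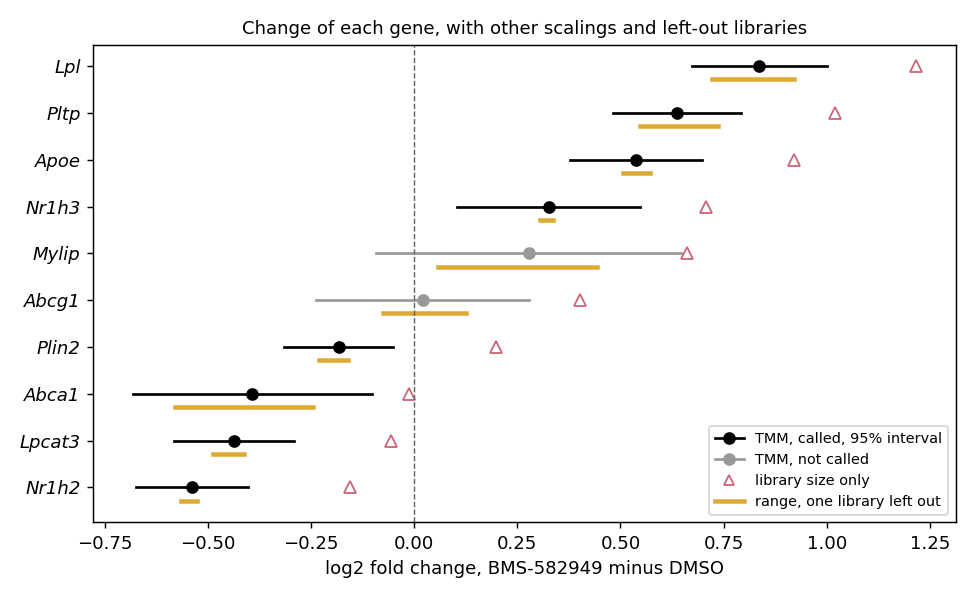
Log2 fold change (BMS-582949 minus DMSO) of each gene with its 95% interval (edgeR, TMM; grey where not called), the value with library size only (open triangles) and the range over fits that leave out 1 library (yellow bars). Triangles lie to the right of every point. Plin2 turns from -0.18 to 0.20 there, and Abca1 and Lpcat3 come close to 0.

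Levels can be compared between genes only per kilobase of exon. In DMSO the order was Apoe, Plin2 (128 ± 2.54 FPKM), Lpl (75.1 ± 1.42), Pltp (46.4 ± 4.26), Nr1h2 (35.4 ± 0.358), Lpcat3 (24.2 ± 0.185), Nr1h3 (10.9 ± 0.0972), Mylip (2.39 ± 0.184), Abcg1 (2.34 ± 0.229) and Abca1 (1.56 ± 0.0750; FPKM, SD, n = 2). Mylip and Abcg1 overlapped, and every other pair of neighbours was separate in both libraries. With BMS-582949 the order was the same except that Lpl (134 ± 11.9 FPKM) stood above Plin2 (112 ± 2.83 FPKM). Mylip (2.89 ± 0.568 FPKM) and Abcg1 (2.38 ± 0.0722 FPKM) then differed by less than the SD of Mylip. Exon lengths are those of all annotated exons together, so the level of a gene with long unused exons is understated.

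**Figure D3:**
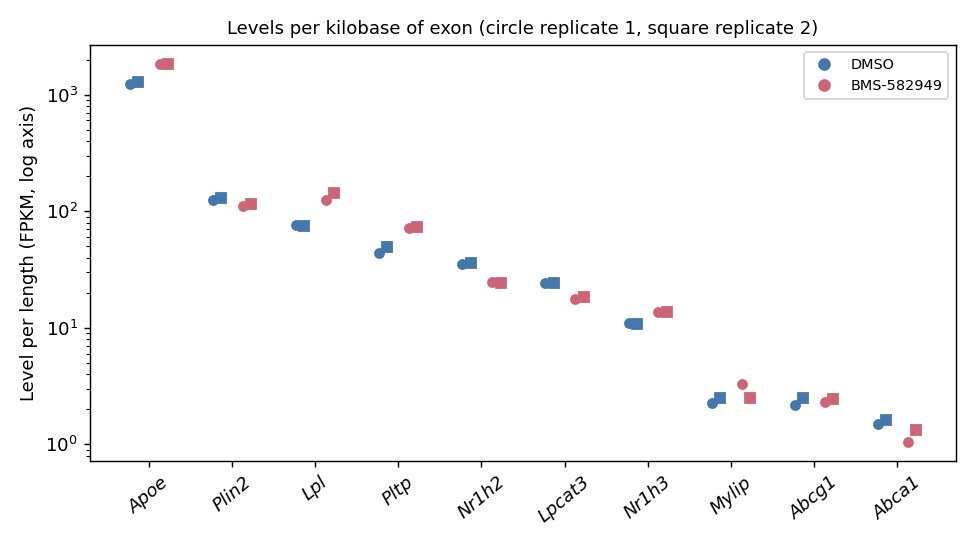
Level per kilobase of exon (FPKM, log axis) of each gene in each library, ordered by the DMSO mean, with DMSO in blue and BMS-582949 in red. Apoe stands above all others, the transporters Abcg1 and Abca1 are lowest together with Mylip, and Lpl passes Plin2 in the treated libraries.

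Other genes of lipid handling were followed in 8 lists by role, 119 genes in all, of which 99 had enough counts. Of these, 39 were called higher and 31 lower (59 and 21 with library size only), beside 30.5% and 29.7% of all tested genes. The counts of each list below stand beside the same shares. Lists were chosen with earlier results of these data known, so their counts are descriptions only. Among 15 LXR partners, coactivators and corepressors, 10 were called higher and 1 lower, with a median log2 fold change of 0.45. The one called lower was Rxrb, an RXR gene, at 79.3 and 85.7 CPM in DMSO and 54.1 and 55.1 CPM with BMS-582949 (log2 fold change -0.60 ± 0.07, SE, adjusted p = 1.2e-05). Rxra, the RXR form prominent in macrophages, went from 32.7 and 39.1 to 55.6 and 56.6 CPM (0.64 ± 0.09, adjusted p = 6.8e-05). Both groups were separate, in opposite directions, as for the LXR pair, and with library size only Rxrb was still called lower (-0.21). Within libraries, Rxra stood at 0.300 and 0.332 of Rxrb per kilobase in DMSO and at 0.748 and 0.747 with BMS-582949 (exact two-sided permutation p = 0.333, the smallest possible). Rxrg, named here after its values were seen, had no count in either DMSO library and 28 and 18 counts in the treated ones. The coactivator gene Ncoa3 rose by 0.83 on the log2 scale.

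**Figure D4:**
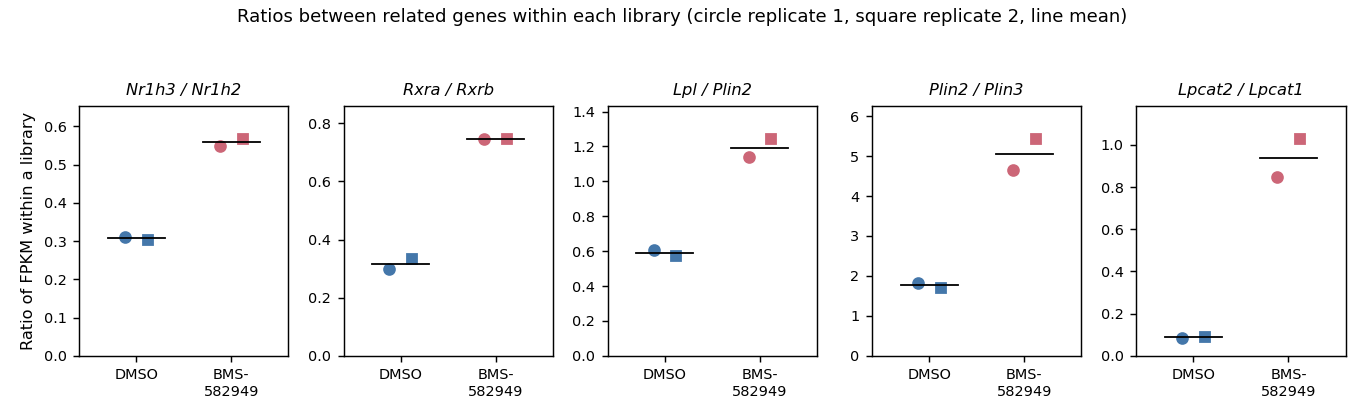
Ratios of FPKM between related genes within each library (linear axes from 0, circles replicate 1, squares replicate 2, lines group means). In each of the 5 panels both BMS-582949 libraries lie above both DMSO libraries, and library scaling cancels in these ratios. The pairs were taken from genes chosen with earlier results known. Nr1h3, Rxra, Lpl and Lpcat2 were called higher and their partners lower, so those panels restate these calls and are not separate evidence. Not drawn is the ratio of Abca1 to Abcg1, lower in both treated libraries. Those of Lpcat3 to Lpcat1 and of Lmf2 to Lmf1, higher in both, are not drawn either.

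Of 16 other LXR target genes with enough counts, 10 were called lower and 4 higher (median -0.61, and 8 and 6 with library size only). Cd5l, a secreted macrophage protein gene, went from 8.65 and 10.0 CPM to 0.973 and 1.11 CPM (log2 fold change -3.16 ± 0.22, SE, adjusted p = 8.6e-08). The transglutaminase gene Tgm2 changed by -1.74, from 205 ± 12.6 to 61.2 ± 4.80 CPM (SD, n = 2), and the apolipoprotein gene Apoc2 by -1.83. Exons of other models cover 21.8% of the exon length of Tgm2 and 79.5% of that of Apoc2, so Apoc2 is uncertain. Genes called higher were led by Mertk, a receptor for apoptotic cells, at 1.35, Arl4c, a small GTPase gene, at 1.20 and the fatty acid synthase gene Fasn at 0.71. Srebf1, the transcription factor gene through which LXRs drive fatty acid synthesis, stood at 68.5 and 74.0 CPM in DMSO and 60.1 and 65.1 CPM with BMS-582949. Its log2 fold change of -0.19 (adjusted p = 0.045) turned to 0.19 with library size only, and was not called without DMSO replicate 2 (-0.13, adjusted p = 0.27) or BMS-582949 replicate 1 (-0.13, adjusted p = 0.22). Srebf1 also lost its call with upper-quartile scaling (-0.13, adjusted p = 0.14) and with no filter on low counts (-0.17, adjusted p = 0.071).

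Oxysterol and cholesterol ester genes were called higher in 5 and lower in 4 of 15 cases (9 and 2 with library size only). Ch25h, which makes the LXR ligand 25-hydroxycholesterol, was low but higher in both treated libraries, at 0.740 and 0.856 CPM in DMSO and 3.98 and 4.63 CPM with BMS-582949 (log2 fold change 2.43 ± 0.29, SE, adjusted p = 1.3e-05). Another gene model covers 11.5% of its exon length. Lipa, the lysosomal acid lipase gene, went from 498 and 546 to 1042 and 1026 CPM (0.99), while Stard3, a late endosomal cholesterol carrier gene, changed by -1.34 and the cholesterol ester hydrolase gene Nceh1 by -0.67. Of the oxysterol-binding protein genes in this list, Osbpl1a stood at 1.88 and Osbpl8 at -0.51, and Osbp was not called (-0.08, adjusted p = 0.35). Exons of another model cover 11.0% of the length of Osbpl1a, and Osbpl8 was not called with library size only (-0.13, adjusted p = 0.087). Soat1, which esterifies cholesterol for storage, was not called (-0.09, adjusted p = 0.24) and turned to 0.29 with library size only.

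Among 12 lipoprotein uptake receptors and scavengers, 7 were called higher and 1 lower, with a median of 0.93. The sorting receptor gene Sorl1 went from 0.708 and 0.982 to 5.46 and 3.85 CPM (log2 fold change 2.46), and Lrp8, a receptor for apolipoprotein E, from 5.24 and 5.13 to 16.8 and 17.8 CPM (1.74). Sort1, which encodes sortilin, rose by 1.63. The HDL receptor gene Scarb1 was not called (0.06, adjusted p = 0.41), though it was with library size only (0.44).

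Of 10 other ABC transporter genes, not all of them known to carry lipid, 6 were called higher and 2 lower (median 0.70). Abcg3 went from 3.64 and 4.98 to 22.8 and 23.5 CPM (log2 fold change 2.42) and Abca3, a phospholipid transporter gene, from 14.3 and 15.5 to 44.2 and 43.5 CPM (1.56). Abca8b (1.28) was near 1 CPM and lost its call without DMSO replicate 2 (adjusted p = 0.10) or BMS-582949 replicate 1 (adjusted p = 0.060). The phosphatidylcholine transporter gene Abcb4 changed by -1.35 and Abca2 by -1.15, from 139 ± 5.27 to 54.7 ± 5.24 and from 96.9 ± 5.70 to 43.6 ± 2.06 CPM (SD, n = 2).

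Genes around lipoprotein lipase and fatty acid uptake were called higher in 5 and lower in 4 of 11 cases. Angptl4, an inhibitor of lipoprotein lipase, was at 3.28 and 4.37 CPM in DMSO and 7.85 and 7.11 CPM with BMS-582949 (log2 fold change 0.97 ± 0.20, SE, adjusted p = 0.0010), the same direction as Lpl. Lmf1, whose product is needed for folding of the lipase, fell by 0.89, and its relative Lmf2 rose by 0.71. Fabp5, a fatty acid carrier gene, rose by 0.84, the fatty acid transporter gene Slc27a1 fell by 0.64 and the nuclear receptor gene Ppard fell by 1.13.

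Lipid droplet genes were called lower in 7 of 12 cases and higher in none (median -0.87), beside 29.7% and 30.5% of all tested genes. With library size only, 4 were lower and 2 higher. Plin3, a relative of Plin2, stood at 260 and 288 CPM in DMSO and 90.1 and 79.7 CPM with BMS-582949 (log2 fold change -1.69 ± 0.08, SE, adjusted p = 2.3e-09). The ratio of Plin2 to Plin3 per kilobase was 1.83 and 1.70 in the controls and 4.64 and 5.44 under the inhibitor (exact two-sided permutation p = 0.333, the smallest possible). Hilpda, whose product inhibits triglyceride breakdown, went from 42.1 and 40.2 to 13.8 and 13.6 CPM (-1.59). Plin4 (-1.07) was below 3 CPM in every library and was called in only 1 of the 4 fits with a library left out. The adjusted p was 0.15 when DMSO replicate 1 was left out, 0.050 for DMSO replicate 2 and 0.14 for BMS-582949 replicate 1. The call of Plin4 also ended with DESeq2 (adjusted p = 0.054) and with library size only (-0.69, adjusted p = 0.13).

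Lysophospholipid acyltransferases other than Lpcat3, grouped here by type of reaction, were called higher in 2 and lower in 2 of 8 cases. Lpcat1 went from 347 and 363 CPM in DMSO to 104 and 95.1 CPM with BMS-582949 (log2 fold change -1.84 ± 0.07, SE, adjusted p = 3.9e-10). Lpcat2, which also makes the lipid mediator PAF, went the other way, from 21.0 and 24.1 to 64.3 and 71.6 CPM (1.59 ± 0.10, SE, adjusted p = 2.4e-08). Per kilobase, Lpcat2 stood at 0.0828 and 0.0909 of Lpcat1 in DMSO and at 0.849 and 1.03 with BMS-582949. Both changes were larger than that of Lpcat3, whose ratio to Lpcat1 was 0.322 and 0.311 in DMSO and 0.784 and 0.890 with the inhibitor. Mboat1 rose by 1.56 and Lpcat4 changed by -0.54, the latter not called with library size only (-0.16). With upper-quartile scaling 4 of the 8 were called higher, and with library size only 5 were higher and 1 lower.

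**Figure D5:**
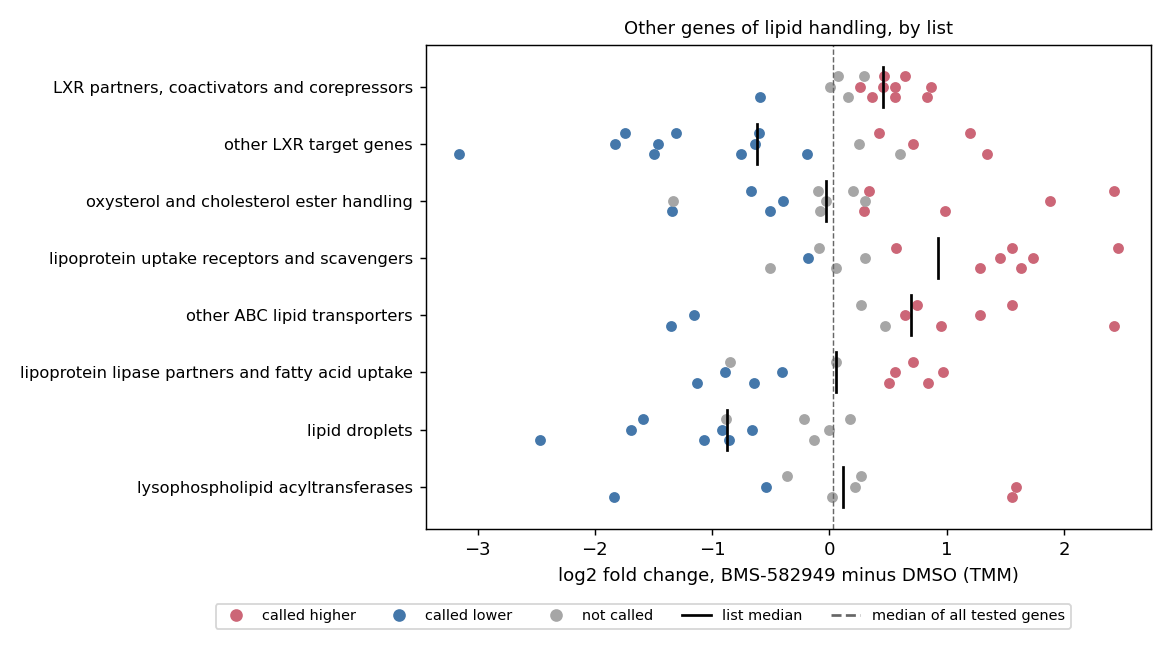
Log2 fold changes (BMS-582949 minus DMSO, TMM) of the tested genes in 8 lists of lipid handling, with red for called higher, blue for called lower, grey for not called, a black bar for the list median and a dashed line for the median of all tested genes (0.03). Rxrg, with no count in DMSO, is left out of the points. Lipid droplet genes and other LXR targets lie mostly to the left, and uptake receptors and ABC transporters mostly to the right; with library size only, values move right by about the shift of the median to 0.41, and 2 lipid droplet genes are then called higher.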

How the data were processed

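RNA of 4 mouse osteoclast cultures was sequenced (mRNA libraries from TRIzol-extracted RNA, per the labels' protocols). The authors deposited 1 table of unnormalised counts covering all 4 libraries, and each column was matched to its sample by name. Per the submitters' processing notes, Trimmomatic 0.36, HISAT2 2.0.4 and DESeq2 1.30.1 were used with GRCm38, in roles the notes do not give. How reads were counted, and on which strand, is not given in the sources used here. Symbols, coordinates and exon lengths for 22022 of 22036 Ensembl identifiers came from GENCODE M21 (GRCm38), and promoters from RefSeq (GRCm38.p6).

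Counts were filtered with filterByExpr (minimum count 10), scaled by TMM and tested with edgeR 4.0.16 (glmQLFit, glmQLFTest) in R 4.3.3, BMS-582949 against DMSO without covariates, on all genes at once with Benjamini-Hochberg adjustment and residual degrees of freedom of 2. The threshold for a call was an adjusted p under 0.05. FPKM is scaled CPM per kilobase of exon. Tested on simulated counts, the fit recovered the sizes and signs of changes, but false calls made up more of the calls than the nominal share. Few genes changed in those simulations, unlike in these data, and a setting with many changes was not simulated. Alternatives were other scalings, filters and thresholds, DESeq2 1.42.0, limma-voom (limma 3.58.1), no mitochondrial genes, a replicate block and each library left out.

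Members and lists were chosen with earlier results of these data known. All members were named, and from each list up to 3 called genes per direction with a mean of at least 1 CPM, largest change first, plus Rxra, Srebf1, Angptl4, Scarb1, Soat1 and Ch25h. A few genes that this rule would name are counted in their lists but not reported here. The DMSO pair differed by more than counting noise (chi-square over its degrees of freedom 9.62), as did the BMS-582949 pair (13.7), and each library counted as a sample. Neutrophil markers summed to 17.6 to 28.0 CPM (3 of 7 tested called lower), and B cell, T cell and erythroid markers to 1.71 to 3.65 CPM (none of 4 called).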

Additional observations from a re-analysis of the deposited data

How the results depend on the processing

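Scaling by library size only raised the number of genes called higher to 6738 (4035 with TMM) and cut those lower to 2240 (3919), and 7 members were higher and 1 lower, against 4 each. The members' median rose from 0.15 to 0.53, and 59 other lipid genes were higher, against 39. Requiring a log2 fold change of at least 1 left 1314 and 1499 genes, 0 and 0 members, and 16 and 15 other lipid genes, and an adjusted p under 0.01 left 2 members lower. Leaving out 1 library gave 2 to 4 members lower (2 without DMSO replicate 2 or BMS-582949 replicate 1) and medians from 0.053 to 0.22 (0.064 without DMSO replicate 1, 0.053 without BMS-582949 replicate 1). Signs turned for Abcg1 with DESeq2 size factors (-0.0068), DESeq2 (-0.0069), with DMSO replicate 1 left out (-0.074; range 0.12 to -0.074 over left-out libraries) and with BMS-582949 replicate 2 left out (-0.031), and for Plin2 (0.20), Srebf1 (0.19) and Soat1 (0.29) with library size only. The number of uptake receptors called lower was 0 to 2 over the alternatives. The cause of these changes was not tested. Calls of Nr1h2, Apoe, Pltp and Lpl held in all 14 alternative fits at an adjusted p under 0.05.

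Deviations of same-numbered libraries correlated at -0.117, so the numbers are not shown to pair the samples. The replicate block gave 3923 genes higher and 3830 lower and the same 4 and 4 member counts, and a crossed block, added after seeing the data, gave 4163 and 4038. The block changed no call among the members and the other lipid genes chosen by the naming rule and reported here. With 2 libraries a group, the intervals of Abcg1 and Mylip included 0.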
